A study of Rattus norvegicus with 24 samples.

Results

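The hypoxia-induced genes described here are 10 genes of the response to low oxygen. Cells are known to raise the transcripts of Vegfa, Ldha, Pgk1, Pdk1, Bnip3, Ankrd37, Egln3, Adm and P4ha1 when oxygen is short. Hif1a encodes a subunit of the factor behind this rise and is itself regulated largely as a protein. The 10 genes were chosen by gene symbol, and all 10 were found among the 17420 entries of the deposited expression table. The table was measured by RNA sequencing of developing hippocampus and neocortex from 24 Sprague-Dawley rat pups on embryonic day 18. There were 6 pups in each of 4 groups, 3 from each of 2 litters, so that 8 dams stand behind the 24 libraries. Saline dams were injected with saline on gestational day 17 and served as controls. MAM dams received methylazoxymethanol acetate, a DNA-alkylating agent, at 22 mg/kg i.p. on gestational day 17. Poly I:C dams received a synthetic double-stranded RNA that mimics a viral infection, at 7.5 mg/kg i.p. on the same day. The pups of the injected dams were taken 18 hours later. Low Protein dams ate a diet with 6.1% protein from gestational day 11 to 18, against 20.3% protein in the control diet. Saline is the only control group and is taken here as the group on that control diet. The sources used here give neither the diet of the MAM and Poly I:C dams nor an injection of the Low Protein dams. Low Protein and Saline may therefore differ in injection as well as in diet. No group was given a low-oxygen treatment, and the sources used here report no measurement of oxygen. The treatment was given to the dam, both sexes were combined, and the tissue holds all of its cell types, so fewer cells of a type and less RNA per cell cannot be told apart.

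Cells sense oxygen through prolyl hydroxylases, which use it to mark the alpha subunits of the hypoxia-inducible factors (HIF) for destruction by the von Hippel-Lindau ubiquitin ligase. When oxygen falls, HIF-1, made of the Hif1a product and its partner ARNT, binds promoters that hold the core letters ACGTG or GCGTG and raises genes that move energy supply from the mitochondria to glycolysis, remodel blood vessels and slow growth. In the fetal brain, which develops at low oxygen, the same factors are known for their role in vessel ingrowth and in the metabolism of neural progenitors. The 10 genes cover the sensor and its factor (Hif1a, Egln3), glycolysis and the fate of pyruvate (Ldha, Pgk1, Pdk1), mitochondrial turnover (Bnip3), vessel signals (Vegfa, Adm), collagen synthesis (P4ha1) and Ankrd37, an ankyrin-repeat protein of little known function.

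The promoters of the 4 genes called in any comparison between groups below are shown with the core letters in capitals. Each sequence holds the 250 bases before the annotated start in RefSeq (GRCr8 assembly, coding strand, 5′ to 3′), at chr1:106507842-106508091 (plus strand) for Ldha, chr1:203154963-203155212 (minus strand) for Bnip3, chr6:98359648-98359897 (plus strand) for Hif1a and chr1:174179950-174180199 (plus strand) for Adm.
Ldha: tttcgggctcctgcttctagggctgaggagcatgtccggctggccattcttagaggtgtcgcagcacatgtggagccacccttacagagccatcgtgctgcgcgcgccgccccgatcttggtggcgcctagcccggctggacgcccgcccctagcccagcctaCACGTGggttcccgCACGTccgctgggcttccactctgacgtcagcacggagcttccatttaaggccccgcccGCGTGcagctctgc
Bnip3: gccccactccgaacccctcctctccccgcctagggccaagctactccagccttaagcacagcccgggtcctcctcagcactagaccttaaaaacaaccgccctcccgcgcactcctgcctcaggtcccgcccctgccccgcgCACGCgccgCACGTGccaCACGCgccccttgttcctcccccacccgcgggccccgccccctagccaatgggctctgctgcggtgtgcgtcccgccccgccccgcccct
Hif1a: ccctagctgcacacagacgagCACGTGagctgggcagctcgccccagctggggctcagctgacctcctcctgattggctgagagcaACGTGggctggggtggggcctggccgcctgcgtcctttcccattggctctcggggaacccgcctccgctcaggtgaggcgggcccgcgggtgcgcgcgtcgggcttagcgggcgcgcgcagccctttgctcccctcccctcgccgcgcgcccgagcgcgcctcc
Adm: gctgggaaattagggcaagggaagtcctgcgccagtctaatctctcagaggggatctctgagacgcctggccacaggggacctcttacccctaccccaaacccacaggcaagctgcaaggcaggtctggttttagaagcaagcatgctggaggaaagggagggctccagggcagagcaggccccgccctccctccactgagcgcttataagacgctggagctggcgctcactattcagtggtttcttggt
ACGTG and GCGTG were searched on both strands, so that their complements CACGT and CACGC are also in capitals, and CACGTG counts as a match on each strand. In Ldha the run CACGTG lay 87 bases before the start, with further matches 73 and 14 bases before it. In Bnip3 it lay 99 bases before the start, with GCGTG on the opposite strand at 108 and 90 bases. Hif1a had CACGTG 229 and ACGTG 164 bases before its start, and the Adm window held neither motif. Of the 9 genes with a promoter in the RefSeq table, 4 had ACGTG and 6 had either motif. Of 33469 rat promoters of the same length, 16.6% had ACGTG and 36.7% had either motif. A match describes the letters and is not a measured binding site.

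Expression is given as the deposited normalized value, a TPM-type measure in which every pup sums to 70350.1 and each gene is divided by its genomic length, so a level compares genes per genomic base. Over the 24 pups the median level was highest for Ldha at 15.9, followed by Vegfa at 7.23, Pgk1 at 5.86, Hif1a at 1.68 and Bnip3 at 1.32. The other 5 genes had medians between 0.371 in Ankrd37 and 0.694 in Pdk1. Differences between groups are on the log2 scale and come from a limma fit of all 24 pups. A difference is called at an unadjusted p under 0.05, with no minimum fold, and the Benjamini-Hochberg p over all genes tested stands beside it. The study used this p alone for MAM and added a minimum fold change for Low Protein and Poly I:C. Vegfa, Ldha, Pgk1, Bnip3 and Hif1a were fitted with the 5086 genes whose mean was above 1 in every group. Pdk1, Ankrd37, Egln3, Adm and P4ha1 lay below that limit in at least 1 group and were fitted with the 12654 genes above the offset in every pup.

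The depth of the libraries, estimated from the smallest steps of the values, ran from 25 M to 65.0 M reads per pup (M for megareads), with group medians from 30.9 M in Poly I:C to 44.4 M in Low Protein. Neurod6 and Tbr1, which mark cortical tissue, were present in every pup. The Saline pup 2-1 (litter 2, pup 1) stood apart, with a summed level of 118 over the 7 measured cortex and hippocampus markers against 188 to 235 in the other Saline pups, and 96.1 over the 9 ganglionic eminence and striatum markers against 45.4 to 61.8. Called genes were 27.3% higher and otherwise lower in MAM versus saline, but 80.0% higher when the pups were scaled by the median of ratios (411 higher, 103 lower) and 56.5% higher by the upper quartile. For MAM versus Poly I:C the same share was 26.0%, 60.5% and 41.1%, for Low Protein versus MAM 79.8%, 45.1% and 58.0%, and for Low Protein versus saline 44.4%, 58.9% and 42.9%. The median of all genes tested moved by less than 0.1 under these scalings.

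**Figure D1:**
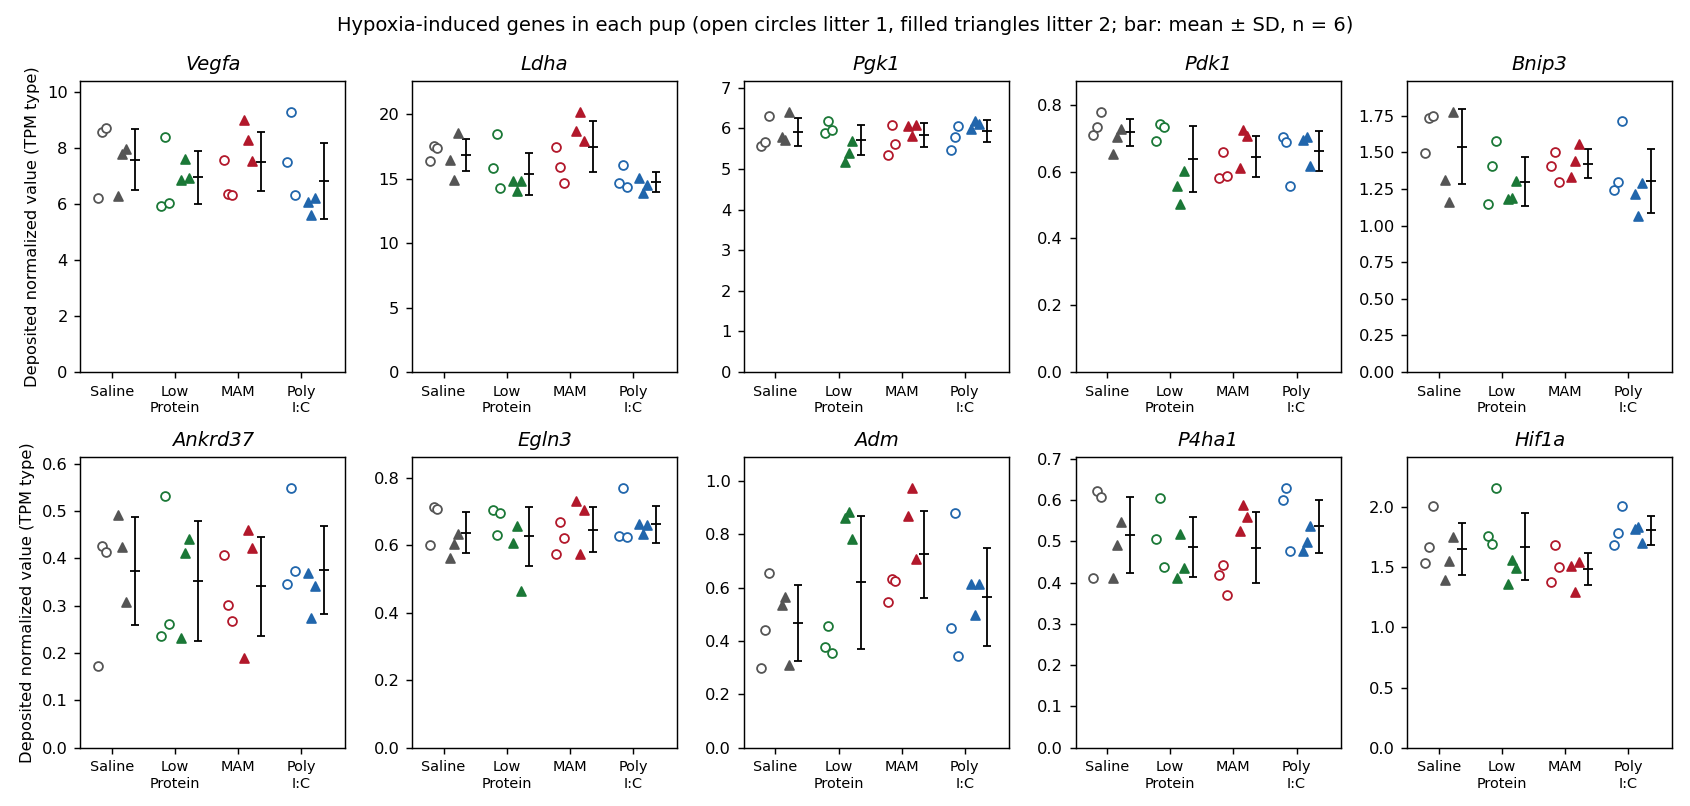
Deposited normalized value (TPM type, linear axis from 0) of each hypoxia-induced gene in each of the 24 pups by group, with open circles for litter 1, filled triangles for litter 2 and bars for the mean ± SD of 6 pups. The groups overlap in every gene. In Adm the Low Protein pups split by litter, from 0.356 to 0.456 in litter 1 and from 0.784 to 0.884 in litter 2.

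In the comparisons with saline the log2 difference was above 0 in 6 of the 10 genes for Poly I:C, 3 for MAM and 2 for Low Protein. The share of all genes above 0 was not determined. Poly I:C gave 2 calls among the 10 (Ldha and Bnip3, lower), MAM gave 1 (Adm, higher) and Low Protein gave 1 (Bnip3, lower). In the same order 9.95%, 11.2% and 8.24% of the 5086 genes were called, and 9.44%, 10.0% and 7.20% of the wider set of 12654. The lowest adjusted p of a hypoxia-induced gene in limma was 0.363 for Poly I:C, 0.495 for MAM and 0.595 for Low Protein. None had values in a treatment group that lay wholly outside those of the Saline pups. Such a gap was shown by 0.492%, 0.786% and 0.747% of the 5086 genes and by 0.450%, 0.901% and 0.680% of the 12654. The median log2 difference over the 10 genes was 0.03 for Poly I:C, -0.05 for MAM and -0.08 for Low Protein, beside 0.00, -0.07 and -0.01 over the 12654 genes. Over the 5 members fitted with the 5086 genes it was -0.16, -0.02 and -0.12, beside 0.01, -0.05 and -0.01 over those genes. Between treatments 2 of 10 were called in MAM versus Poly I:C, where 23.1% of the 5086 and 18.4% of the 12654 genes were, and 1 of 10 in Low Protein versus MAM, where 11.0% and 8.70% were. Of the calls against saline, Adm in MAM alone had an absolute log2 difference of at least 0.6, and those in Low Protein and Poly I:C did not. Hif1a, Egln3 and the other members are taken in turn below, by their roles.

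**Figure D2:**
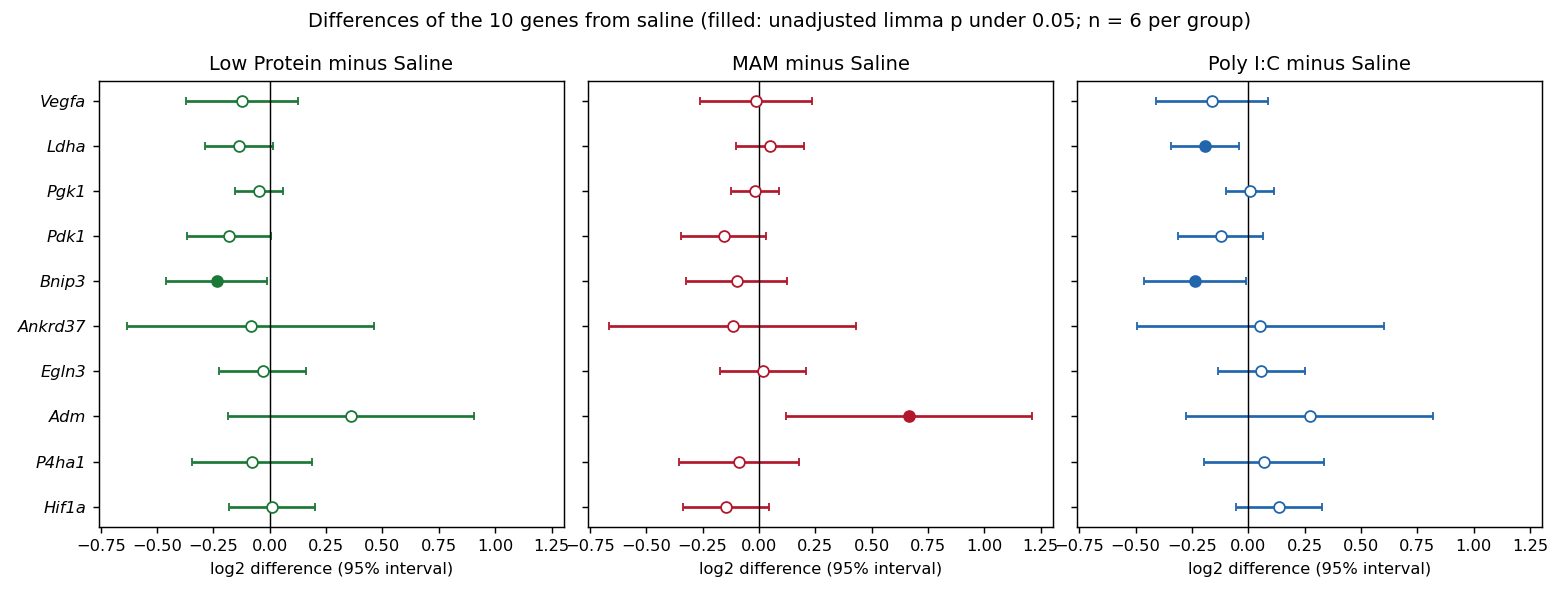
Log2 difference of each hypoxia-induced gene from saline with its 95% interval (limma, 6 pups per group), in 1 panel per treatment, with filled points for an unadjusted p under 0.05. The filled points are Bnip3 in Low Protein and Poly I:C at -0.24, Ldha in Poly I:C at -0.19 and Adm in MAM at 0.67. The other intervals include 0.

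Hif1a encodes the subunit whose protein is regulated by oxygen, largely without a change of its transcript. Its level was 1.40 to 2.01 in the Saline pups (median 1.61), 1.69 to 2.01 in Poly I:C (1.80), 1.30 to 1.69 in MAM (1.51) and 1.37 to 2.16 in Low Protein (1.62). By group median MAM was the lowest and Poly I:C the highest, while the highest single pup was a Low Protein pup. Relative to saline the differences were not called, at 0.14 for Poly I:C (exact permutation p = 0.128), -0.15 for MAM (exact permutation p = 0.132) and 0.01 for Low Protein, with an SE of 0.09 each. Without the Saline pup 2-1 the MAM difference was -0.19 and just called, and without the Saline pup 1-3 the Poly I:C difference was 0.20 and called. Between MAM and Poly I:C, Hif1a was lower in MAM by -0.28 (SE 0.09, limma p = 0.00532, adjusted p = 0.0753, exact permutation p = 0.00433), and 5 of 6 MAM pups lay below the lowest Poly I:C pup. This call was kept in each of the 45 other settings and leave-outs that were run, with differences from -0.32 to -0.18. Leave-outs of Saline or Low Protein pups and litters act on it only through the shared spread, so they test it little.

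Egln3 encodes a prolyl hydroxylase that marks HIF alpha subunits and is itself raised by HIF. Its group means lay close together, at 0.637 ± 0.061 in Saline, 0.662 ± 0.055 in Poly I:C, 0.645 ± 0.066 in MAM and 0.626 ± 0.087 in Low Protein (SD, n = 6 each). The 95% interval of the log2 difference was -0.13 to 0.25 for Poly I:C, -0.17 to 0.21 for MAM and -0.22 to 0.16 for Low Protein. None of the 3 differences was called.

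Ldha, the lactate dehydrogenase subunit that turns pyruvate into lactate, had the lowest p of the 10 genes in the test over all groups. It was 14.9 to 18.5 in the Saline pups (median 16.9), 13.9 to 16.1 in Poly I:C (14.6), 14.7 to 20.1 in MAM (17.7) and 14.1 to 18.4 in Low Protein (14.8). In Poly I:C 4 of 6 pups lay below the lowest Saline pup, and in Low Protein 4 of 6 did. Ldha was lower in Poly I:C than in saline, with means of 14.7 ± 0.756 and 16.9 ± 1.24 (SD, n = 6 each), a log2 difference of -0.19 (SE 0.07, 95% interval -0.34 to -0.04, limma p = 0.0148, adjusted p = 0.363, exact permutation p = 0.00649). The call was lost without Saline litter 1 (-0.17), without Poly I:C litter 2 (-0.17) and on litter means. The Low Protein difference of -0.14 (SE 0.07, limma p = 0.0722, exact permutation p = 0.0996) was not called, but it was without the Saline pup 2-2 (-0.17), the Low Protein pup 1-2 (-0.19), Low Protein litter 1 (-0.21) or, through the shared spread, MAM litter 1 (-0.14). In MAM the difference from saline was 0.05 (SE 0.07) and not called, and without MAM litter 1 the difference was 0.17 and called.

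The Ldha level also separated the treatments from each other. It was higher in MAM than in Poly I:C by 0.24 on the log2 scale (SE 0.07, limma p = 0.00318, adjusted p = 0.0601, exact permutation p = 0.0130), with 4 of 6 MAM pups above the highest Poly I:C pup. Low Protein pups were below MAM pups by -0.18 (SE 0.07, limma p = 0.0182, adjusted p = 0.342, exact permutation p = 0.0649). Both rested on the same MAM litter. Without MAM litter 2 the difference from Poly I:C was 0.12 and the difference of Low Protein from MAM was -0.06, and neither was called. The Low Protein call was also lost without Low Protein litter 2 (-0.11) and without the MAM pup 2-2 (-0.14), on litter means, and with array weights, where the difference was -0.10. In the test over all 4 groups at once, Ldha and Hif1a were called, with adjusted p = 0.177 and adjusted p = 0.297 in limma. The other 8 genes were not called, against 16.4% of the 5086 genes and 12.8% of the 12654.

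Pgk1, the enzyme of the first ATP-forming step of glycolysis, was the steadiest of the 10. It ranged from 5.18 to 6.40 over all pups, a 1.24-fold range, and its spread within groups was above that of only 9.38% of the 5086 genes. The largest log2 difference from saline was -0.05 in Low Protein (SE 0.05, 95% interval -0.16 to 0.06). The intervals for MAM and Poly I:C ran from -0.12 to 0.09 and from -0.10 to 0.12. The difference of 0.01 in Poly I:C was not tested against that of Ldha.

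Pdk1 phosphorylates the pyruvate dehydrogenase complex and so keeps pyruvate out of the mitochondria. Its level in the Saline pups was narrow, from 0.653 to 0.778 (median 0.719). The lowest, median and highest values were 0.558, 0.691 and 0.703 in Poly I:C, 0.582, 0.635 and 0.726 in MAM and 0.502, 0.648 and 0.744 in Low Protein. All 3 treatment means lay below the saline mean, with 3 Low Protein, 3 MAM and 2 Poly I:C pups below the lowest Saline pup, but the groups overlapped. The log2 differences were -0.18 for Low Protein, -0.16 for MAM and -0.12 for Poly I:C (SE 0.09 each) and were not called, in that order with limma p = 0.0574, 0.0960 and 0.188 and exact permutation p = 0.104, 0.0498 and 0.0887. The 3 comparisons share their Saline pups. The Low Protein difference was called without 1 of 5 pups (the Saline pup 2-1, the Low Protein pups 1-1, 1-2 and 1-3 or, through the shared spread, the Poly I:C pup 1-3), at -0.23 to -0.18, and without Low Protein litter 1, at -0.375. The MAM difference was called without MAM litter 2 (-0.24) and, through the shared spread, without either Low Protein litter (-0.16). It was also called in 2 of the other settings.

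Bnip3, a receptor that marks mitochondria for removal, was lower than in saline in both Low Protein and Poly I:C, by -0.24 (SE 0.11) each. The lowest, median and highest values were 1.16, 1.62 and 1.77 in Saline, 1.06, 1.27 and 1.72 in Poly I:C, 1.30, 1.42 and 1.56 in MAM and 1.15, 1.25 and 1.58 in Low Protein. Saline spanned nearly the whole range, and only 1 Low Protein and 1 Poly I:C pup fell below its lowest value. Both calls were close to the threshold, with limma p = 0.0412 (adjusted p = 0.595, exact permutation p = 0.0931) in Low Protein and p = 0.0409 (adjusted p = 0.471, exact permutation p = 0.132) in Poly I:C. The Low Protein call was lost without any 1 of 8 pups (Saline 1-1, 1-2, 1-3 and 2-3, Low Protein 1-1, 2-1, 2-2 and 2-3), at -0.24 to -0.19, and without Saline litter 1 (-0.11), Low Protein litter 2 (-0.16) or either MAM litter (-0.24). The Poly I:C call was lost without any 1 of 9 pups (Saline 1-1, 1-2, 1-3 and 2-3, Poly I:C 1-1, 1-2, 2-1, 2-2 and 2-3), at -0.24 to -0.18, and without Saline litter 1 (-0.11), Poly I:C litter 2 (-0.11) or either MAM litter (-0.24). Both were also lost in 5 of the other settings, among them both rescalings. Without the Saline pup 2-1 both differences were -0.28 and remained called.

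Vegfa, the growth factor that draws vessels into the developing brain, was among the more variable genes, with a within-group spread above that of 86.2% of the 5086 genes. Its lowest, median and highest values were 6.21, 7.88 and 8.74 in Saline, 5.60, 6.28 and 9.29 in Poly I:C, 6.34, 7.56 and 9.02 in MAM and 5.93, 6.90 and 8.40 in Low Protein. The highest single pup was a Poly I:C pup although that group had the lowest median. The log2 differences from saline were -0.16 for Poly I:C (limma p = 0.197, exact permutation p = 0.294), -0.12 for Low Protein and -0.01 for MAM (SE 0.12 each), and none was called. The Poly I:C difference was -0.25 without its pup 1-2 and -0.34 without its litter 1, and was then called.

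Adm encodes adrenomedullin, a peptide that widens vessels and acts on the endothelium. It had the largest log2 difference from saline of the 10 genes. Its level was 0.299 to 0.655 in the Saline pups (median 0.489), 0.343 to 0.879 in Poly I:C (0.555), 0.547 to 0.974 in MAM (0.670) and 0.356 to 0.884 in Low Protein (0.620). Every MAM pup lay above the saline mean of 0.468, and 3 of 6 lay above the highest Saline pup. The mean in MAM was 0.726 ± 0.163 against 0.468 ± 0.143 in saline (SD, n = 6 each), a log2 difference of 0.67 (SE 0.26, 95% interval 0.12 to 1.21, limma p = 0.0192, adjusted p = 0.495, exact permutation p = 0.0195). The differences of 0.36 for Low Protein (exact permutation p = 0.266) and 0.27 for Poly I:C (exact permutation p = 0.331), with an SE of 0.26 each, were not called. With array weights the Poly I:C difference was 0.58 and called.

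Adm was a gene of few reads, and its values rest on counting. With a fitted length of 2181 bases the values of all 24 pups came out within 0.25 of whole reads, from 25 to 119 reads per pup (median 61), which gives a counting error of 9.17 to 20.0%. Over the 24 pups the level ranged 3.26-fold. The MAM call was lost without the Saline pups 1-1 (0.55) or 2-3 (0.56), without Saline litter 1 (0.65), Saline litter 2 (0.68) or MAM litter 2 (0.42), and on litter means. It was 0.72 and called without the Saline pup 2-1. With a pseudocount of 1, which is above the level of Adm itself, the difference was 0.23 and still called.

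P4ha1, the catalytic subunit of the enzyme that hydroxylates collagen, had means of 0.515 ± 0.093 in Saline, 0.536 ± 0.065 in Poly I:C, 0.484 ± 0.086 in MAM and 0.485 ± 0.072 in Low Protein (SD, n = 6 each). Its log2 differences from saline lay between -0.09 and 0.07 (SE 0.13 each) and were not called, and that of MAM was -0.31 and called without MAM litter 2. Ankrd37 was measured by 23 to 93 reads per pup (median 47) with a fitted length of 2901 bases. It ranged 3.17-fold, from 0.173 in a Saline pup to 0.549 in a Poly I:C pup, and its differences of -0.12 to 0.05 carried an SE of 0.26. Changes of Ankrd37 smaller than the interval of -0.67 to 0.43 in MAM could not be told from its spread.

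Because a dam is the unit that was treated, the litters were set against each other within each group. This fit, with the 8 litters as the factor, was added after values had been seen. Its p-values use the spread of 3 pups within a litter, pooled over all litters, since 3 pups against 3 cannot reach an exact p under 0.05. In saline 0 of 10 genes differed between the litters at an unadjusted p under 0.05 in limma. Low Protein had 4 such genes, MAM had 2 and Poly I:C had 1. The background was 3.09%, 12.7%, 1.24% and 15.4% of the 5086 genes in Saline, Low Protein, MAM and Poly I:C, and 2.29%, 9.85%, 1.81% and 14.7% of the 12654. The lowest adjusted p of a member was 0.258.

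**Figure D3:**
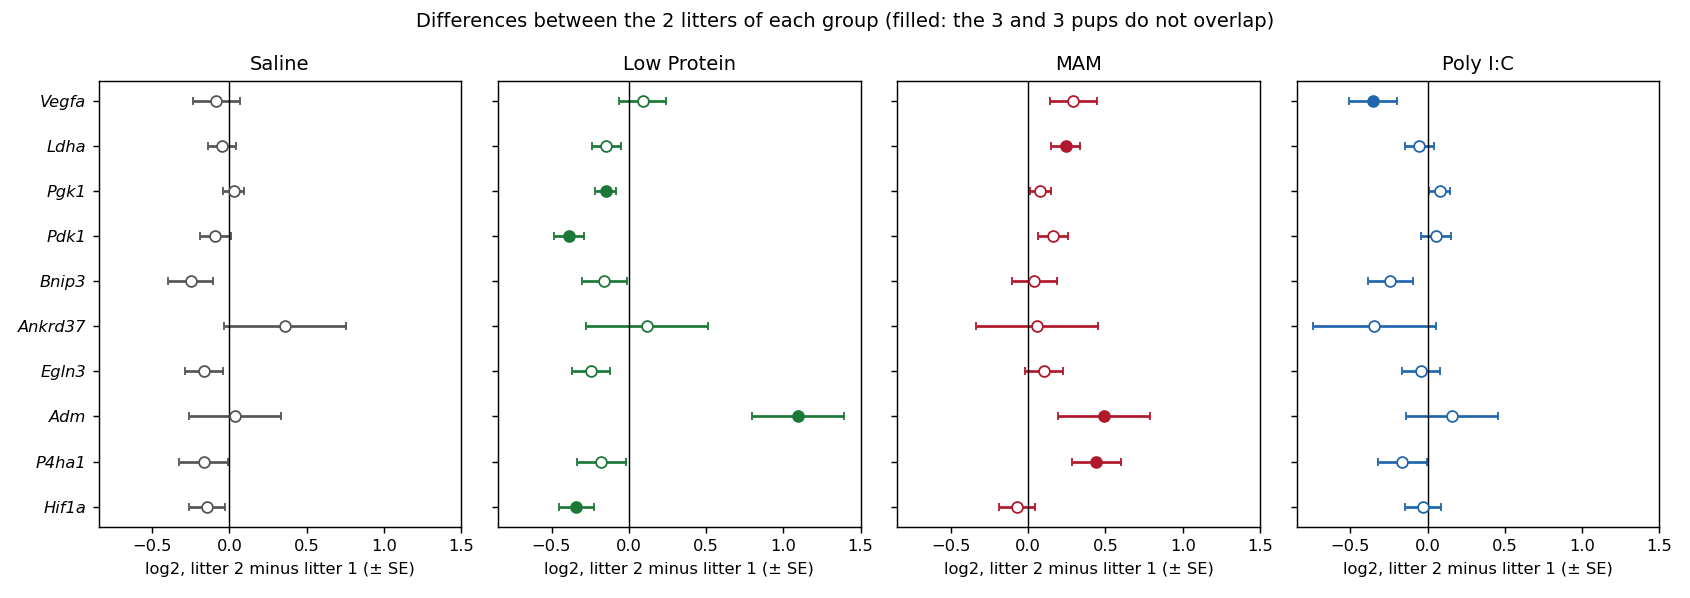
Log2 difference between litter 2 and litter 1 (± SE, 3 pups each) of each hypoxia-induced gene, in 1 panel per group, with filled points where the 3 and 3 pups do not overlap. No Saline point is filled. In Low Protein Adm lies at 1.10 and Pdk1 at -0.39, and in MAM Ldha lies at 0.24, P4ha1 at 0.44 and Adm at 0.49.

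The Low Protein litters differed most in Adm. The pups of litter 1 had 0.376, 0.456 and 0.356, and those of litter 2 had 0.862, 0.884 and 0.784. Litter 1 lay within the Saline range and litter 2 wholly above it. The log2 difference was 1.10 (SE 0.30, limma adjusted p = 0.447) and called. Relative to saline, the Low Protein difference in Adm was 0.91 and called without litter 1, but -0.19 without litter 2.

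Pdk1 went the other way in the same litters, with 0.693, 0.744 and 0.733 in litter 1 and 0.557, 0.502 and 0.603 in litter 2 (log2 -0.39, SE 0.10, limma adjusted p = 0.367). All 3 pups of litter 2 lay below the lowest Saline pup. The other two genes called were also lower in litter 2. Hif1a had 1.76, 1.69 and 2.16 against 1.37, 1.56 and 1.49 (log2 -0.34, limma adjusted p = 0.358), and Pgk1 had 5.89, 6.17 and 5.96 against 5.18, 5.39 and 5.68 (log2 -0.15, limma adjusted p = 0.371). In these 4 genes the litters did not overlap, a pattern shown by 20.6% of the 5086 and 17.2% of the 12654 genes in Low Protein. Endothelial markers summed to 39.5 to 71.1 in litter 1 and 50.9 to 84.9 in litter 2, and meningeal markers to 8.33 to 38.2 and 15.8 to 64.0, all 10 and all 8 listed genes measured and none at the offset. The endothelial sum was mostly Cldn5, with a median of 54.0 over all pups against 1.71 for the next highest, Esam. The endothelial and meningeal sums overlapped between the litters, and their part in the result was not tested.

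In MAM, 9 of 10 genes were higher in litter 2, all but Hif1a. The share of all genes higher in that litter was not determined, so this count cannot be set against a background. Ldha had 17.5, 15.9 and 14.7 in litter 1 and 18.7, 20.1 and 17.9 in litter 2 (log2 0.24, limma adjusted p = 1.00). P4ha1 had 0.419, 0.443 and 0.371 against 0.525, 0.588 and 0.560 (log2 0.44, limma adjusted p = 1.00). Adm had 0.547, 0.631 and 0.626 against 0.869, 0.974 and 0.708 (log2 0.49, not called). These 3 genes did not overlap between the litters, where 6.25% of the 5086 and 6.53% of the 12654 genes did not. In Poly I:C, Vegfa had 7.51, 9.29 and 6.34 in litter 1 and 6.08, 5.60 and 6.22 in litter 2 (log2 -0.35, limma adjusted p = 0.258). Vegfa was the 1 member without overlap between these litters, against 19.0% of the 5086 and 18.3% of the 12654 genes, and in saline 4.15% and 4.70% of genes showed none. The sum of the endothelial markers in the same litters went the other way, at 43.8 to 53.2 in litter 1 and 58.1 to 74.6 in litter 2. The 7 choroid plexus markers summed to 33.9 to 156 and 198.6 to 252. Each sum was mostly 1 gene, Cldn5 with a median of 54.0 over all pups and Ttr with 147. The next highest medians were 1.71 for Esam and 2.84 for Aqp1, so the sums do not describe the other markers. The part of these sums in the Vegfa difference was not tested.

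The genes around the members were taken from 5 lists. Of the oxygen sensing list, with ARNT partners, hydroxylases and subunits of the ubiquitin ligase, 13 of 16 genes were found and 7 were tested. Vhl, the part of the ligase that recognizes hydroxylated HIF, was higher in Poly I:C, at 9.81 against 9.06 in saline (log2 0.11, SE 0.05, limma adjusted p = 0.457, exact permutation p = 0.0238), a call lost in 10 of 45 settings, and the other 6 were not called. Vhl was lower in MAM than in Poly I:C by -0.15 (limma adjusted p = 0.0818, exact permutation p = 0.00216), and the 6 MAM pups, from 8.25 to 9.07, lay wholly below the 6 Poly I:C pups, from 9.18 to 10.7. Of all genes, 4.35% showed no overlap in that comparison. None of the 7 was called in Low Protein or MAM versus saline. In Low Protein versus MAM the hydroxylase gene Egln2 was lower, by -0.13 (limma p = 0.0401, exact permutation p = 0.0130), and this call was lost in 15 of 45 settings.

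Glycolysis genes other than the members were lower in Poly I:C more often than higher. Of 14 tested, 4 were called lower and 0 higher, with a list median of -0.12 beside 0.01 over the 5086 genes, of which 5.70% were called lower and 4.25% higher. Tpi1, which interconverts the triose phosphates, was 47.4 against 52.9 in saline (log2 -0.16, SE 0.05, limma adjusted p = 0.304, exact permutation p = 0.00433). Gpi (-0.17) and the enolase gene Eno2 (-0.21) followed. In Low Protein 2 of 14 were called lower, Eno2 (-0.20) and Pfkl (-0.22), with a median of -0.09, where 4.58% of all genes were called lower and 3.66% higher. In MAM 1 of 14 was called, the enolase gene Eno1, higher at 0.12 (limma adjusted p = 0.416, exact permutation p = 0.0433), and the list median was 0.01, where 3.07% of all genes were called higher and 8.18% lower.

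Between treatments the same list stood higher in MAM than in Poly I:C. There 6 of 14 were called higher and 0 lower, and 11 of 14 differences were positive, with a list median of 0.15 beside -0.04 over all genes, of which 6.02% were called higher and 17.1% lower. Eno1 had means of 22.3 ± 1.25 in MAM and 19.5 ± 0.808 in Poly I:C (SD, n = 6 each), a log2 difference of 0.19 (SE 0.05, limma adjusted p = 0.0425, exact permutation p = 0.00433). Tpi1 (0.17) and the pyruvate kinase gene Pkm (0.17) followed, with adjusted p = 0.0682 and 0.0838 in limma. The list median was 0.21 under the median of ratios and 0.17 under the upper quartile. Without MAM litter 2 the differences from Poly I:C were 0.15 for Eno1, 0.097 for Tpi1 and 0.11 for Pkm. Without MAM litter 1 they were 0.23, 0.24 and 0.24, so the size of the shift depended on the MAM litter. In Low Protein versus MAM 4 of 14 were called lower, with Eno1 (-0.21), Tpi1 (-0.12) and Pfkl (-0.21) at the lowest p, where 2.22% of all genes were called lower. Without MAM litter 2, Tpi1 was -0.048 and Pfkl -0.11, and neither was then called. In Low Protein versus Poly I:C neither a member nor a glycolysis gene was called, where 5.31% of the 5086 and 4.6% of the 12654 genes were.

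**Figure D4:**
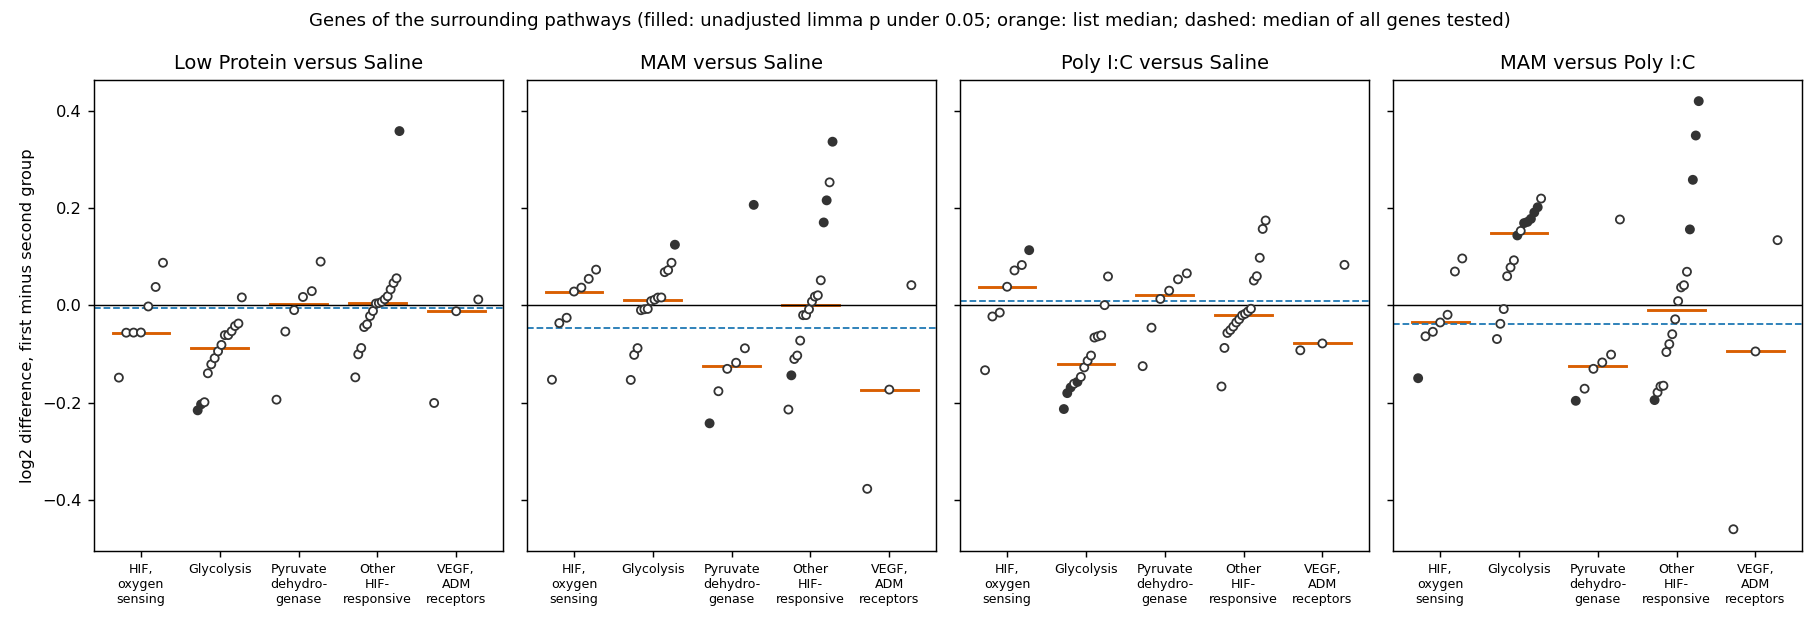
Log2 difference of each tested gene of the 5 surrounding lists in 4 comparisons, with filled points for an unadjusted limma p under 0.05, orange lines for the list median and a dashed line for the median of all 5086 genes. The glycolysis median lies at -0.12 in Poly I:C versus saline and at 0.15 in MAM versus Poly I:C, away from the dashed lines at 0.01 and -0.04.

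The 6 tested genes of the pyruvate dehydrogenase list gave 2 calls in MAM, where 11.2% of the 5086 genes were called, and 0 in the other comparisons with saline. Pdp2, a phosphatase that reactivates the complex, was lower in MAM, at 1.30 to 1.72 against 1.74 to 2.04 in saline without overlap (log2 -0.24, SE 0.11, limma adjusted p = 0.418, exact permutation p = 0.00216), and the kinase gene Pdk2 was higher, by 0.21 (exact permutation p = 0.0260). The Pdp2 call was lost in 9 of 45 settings and the Pdk2 call in 15, among them the fit of the 12654 genes. Dld, of the same list, was called lower in MAM than in Poly I:C (-0.20), where 17.1% of the 5086 genes were. That call was lost in 15 of 45 settings. Of the list of other HIF-responsive genes 34 of 39 were found and 16 tested, of which 3 were called higher and 1 lower in MAM, 0 in Poly I:C and 1 higher in Low Protein, beside 11.2%, 9.95% and 8.24% of all genes called. Ddit4, an inhibitor of the growth kinase mTORC1, was 33.6 to 39.3 in Saline and 39.4 to 45.6 in MAM, without overlap (log2 0.22, SE 0.06, limma adjusted p = 0.331, exact permutation p = 0.00216). Mif, a cytokine, was also higher in MAM (0.17), and Mxi1, a MYC antagonist, was lower (-0.14). The Mxi1 difference was -0.22 without MAM litter 2 and -0.063 without MAM litter 1, and its call was lost in 14 of 45 settings. Angptl4, a secreted inhibitor of lipoprotein lipase, was the gene called in Low Protein, at 0.36 (limma p = 0.0326, exact permutation p = 0.119). It was 0.59 without Low Protein litter 1 but 0.13 without litter 2, and the call was lost in 9 of 45 settings. In Low Protein versus MAM, Ddit4 (-0.18) and Mif (-0.15) were called lower, where 2.22% of the 5086 genes were. In Low Protein versus Poly I:C, Angptl4 (0.37) was called higher and Klf10 (-0.20) lower. Vhl of the oxygen sensing list was also lower there (-0.12), where 5.31% of the 5086 genes were called. These last 3 calls were lost in 8, 16 and 11 of 45 settings.

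In the 12654 genes, where the low members were tested, these lists gave further calls. The genes named here were chosen after their values were seen, all with a mean of 1 or less in at least 1 group. The background is 7.20% called in Low Protein, 9.44% in Poly I:C and 10.0% in MAM. Of 15 VEGF and adrenomedullin ligands and receptors, 1 was called higher in Low Protein, 1 higher and 3 lower in Poly I:C and 0 in MAM. Vegfc, the growth factor of lymphatic vessels, was higher by 0.39 (SE 0.11, limma adjusted p = 0.636) in Low Protein and by 0.30 (SE 0.11, limma adjusted p = 0.408) in Poly I:C. Lower in Poly I:C were the co-receptor gene Nrp2 (-0.38), the adrenomedullin receptor partner Ramp3 (-0.41) and Apln, the ligand of the apelin receptor (-0.39). Of 33 other HIF-responsive genes, Car9, a carbonic anhydrase that regulates pH, was lower in Low Protein by -0.77 (SE 0.20, limma adjusted p = 0.523) and in Poly I:C by -0.46 (SE 0.20). Bhlhe40, a transcriptional repressor, was also lower in both, by -0.47 and -0.50 (SE 0.17 each). In the other three lists, Pfkfb4, a regulator of glycolytic flux, was lower in Low Protein (-0.19) and Poly I:C (-0.34). Lower in MAM were the glucose transporter gene Slc2a3 (-0.25), Siah2, a ligase that acts on the prolyl hydroxylases (-0.21), and Pdhx, a part of the pyruvate dehydrogenase complex (-0.18). The comparisons of Low Protein and Poly I:C with saline share their Saline pups.

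Among the other HIF-responsive genes of the 5086, Mif gave the lowest p between MAM and Poly I:C, with 124 to 140 in MAM and 100.7 to 117 in Poly I:C and no overlap (log2 0.26, SE 0.06, limma adjusted p = 0.0260, exact permutation p = 0.00216, the smallest that the splits can give). The heme oxygenase gene Hmox1 was higher (0.42) and Mxi1 lower (-0.19) in MAM. The Hmox1 difference was 0.17 without Poly I:C litter 1 and 0.67 without Poly I:C litter 2. That of Mxi1 was -0.28 without MAM litter 2 and -0.11 without MAM litter 1. Of the VEGF and adrenomedullin ligands and receptors 16 were found, and the 3 with a mean above 1 in every group were not called in any comparison with saline. Erythroid markers, 12 of 15 listed genes, summed to 2087 to 3608 in Saline, 2650 to 4387 in Poly I:C, 2368 to 4259 in MAM and 1929 to 4675 in Low Protein. Of 7 tested, 1 was called higher in Low Protein and 1 in MAM, where 3.66% and 3.07% of the 5086 genes were. All 7 differences were positive in Poly I:C and in MAM, and 4 in Low Protein. Their medians were 0.23, 0.21 and 0.04, beside 0.01, -0.05 and -0.01 over the 5086 genes. Endothelial, meningeal and choroid plexus markers gave no call against saline among the 3, 5 and 3 tested in the 5086 genes, and in the 12654 genes 1 of 10 endothelial markers, Egfl7, was lower in Poly I:C (-0.35). Of 5 tested ganglionic eminence and striatum markers, 3 were called lower in Low Protein and 2 in MAM, where 4.58% and 8.18% of the 5086 genes were. Of 6 tested cortex and hippocampus markers, 2 were higher and 1 lower in Low Protein, 1 was higher in Poly I:C and 1 in MAM, and the list medians were 0.22, 0.16 and 0.12. In that order 8.24%, 9.95% and 11.2% of the 5086 genes were called. The Saline pup 2-1, whose sums stood apart in both lists, is among the controls, and its part in these counts was not tested. The part of these cell types in the members' differences was not tested.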

How the data were processed

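RNA of 24 pups was sequenced as stranded mRNA libraries. The authors trimmed reads by quality in Partek Flow, aligned them to rn6 with STAR (version 2.4.1d), quantified them on RefSeq transcripts with Partek's E/M method and deposited TPM values to which 0.0001, the offset, had been added. Each pup's deposited TPM values total 70350.1, and long genes have lower ones. The table gives no counts. Depth was estimated from the step that 1 read is worth in low values of spans from GRCr8 (97.6% of genes matched), of which 49.0 to 54.3% lay within 0.05 of whole reads, against 10% by chance, and the estimates are approximate.

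Log2 of the deposited values was compared with limma (version 3.58.1, R version 4.3.3) in 1 fit of the 24 pups, with group as factor. Single genes were also compared by two-sided exact permutation of mean log2 values between 6 and 6 pups, where 924 splits allow no p below 0.00216. Labels name litter and pup, and pups of 1 litter share a dam, so p-values over pups measure the spread between pups of 2 litters. The fits were tested on simulated data with independent pups and no litter effect, so that test does not cover p-values where litters differ. Named besides the members are the at most 3 genes with the lowest p per list and comparison among those called. Members and lists were chosen with earlier results of these data known. A listed cortex marker is not reported here. The settings tried were 24 pups and 8 litters left out in turn and 13 others on the filter, scaling, pseudocount, pups fitted, litter, block, variance trend, weights and length, and for the counts also a minimum fold. Intervals of read numbers cover counting error only. Promoter sequences are from RefSeq (GRCr8) and were not placed on rn6.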

Additional observations from a re-analysis of the deposited data

Results flagged for a closer look

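In Poly I:C, 3 of the 10 hypoxia-induced genes had 1 pup far above the others. Bnip3 was 1.72 in pup 1-3, and its gap to the next pup was 0.640 of the range of the group. Ankrd37 was 0.549 in pup 1-2, with a gap of 0.641 of the range, and Egln3 was 0.769 in the same pup, with a gap of 0.744. Each exceeds Dixon's 95% critical value for 6 samples. Of the 40 groups of values checked, chance gives about 2 such cases.

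The effects of 2 treatments differed in a test of the difference itself for Ldha and Hif1a. Ldha was higher in MAM than in Poly I:C (log2 0.239, limma adjusted p = 0.0601) and lower in Low Protein than in MAM (log2 -0.185, limma adjusted p = 0.342). Hif1a was lower in MAM than in Poly I:C (log2 -0.285, limma adjusted p = 0.0753). All 3 passed an unadjusted p under 0.05, and their adjusted p over all genes tested was above it.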

How the results depend on the processing

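Every count below is of genes at an unadjusted limma p under 0.05, and the cause of a change was not tested unless named. Of the 10 hypoxia-induced genes, 2 were called in Poly I:C versus saline, 1 in MAM, 1 in Low Protein and 2 over the 4 groups. With no filter, the median of ratios or the upper quartile these became 0 in Low Protein, 1 in Poly I:C and 1 over the 4 groups. In a fit of only the 2 groups compared there were 1 in Poly I:C, 2 in MAM and 0 in Low Protein. Array weights gave 2 in MAM. The count over the 4 groups was also 1 with a pseudocount of 1, with the litter as a random effect and with the length trend removed. On litter means, 2 against 2, it was 0 in Poly I:C, MAM, Low Protein, Low Protein versus MAM and the 4 groups, where only 8 values were fitted. Leaving out a pup or a litter gave 0 to 3 in Poly I:C, 0 to 2 in MAM, 0 to 4 in Low Protein, 2 to 4 in MAM versus Poly I:C, 0 to 2 in Low Protein versus MAM, 0 to 4 in Low Protein versus Poly I:C and 0 to 4 over the 4 groups. The counts of 4 came without Low Protein litter 1 or, between MAM and Poly I:C, when litter 1 of the latter was left out. Members without overlap between Poly I:C and saline numbered 0 to 1, with 1 without the Saline pups 2-1 or 2-2. A minimum absolute log2 difference of 0.6, added after seeing the data, gave 0 members in Poly I:C, 1 in MAM and 0 in Low Protein.

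Over all genes, 506 were called in Poly I:C, 572 in MAM and 419 in Low Protein. No filter gave 1298, 1387 and 1024, and genes above the offset in all pups gave 1194, 1270 and 911, where more genes were tested. Litter means gave 312, 250 and 262, and array weights gave 678 in Low Protein and 1249 in MAM. With the minimum of 0.6 there were 3, 2 and 0. Leaving out a pup or litter gave 228 to 964, 163 to 862 and 271 to 530. The MAM count was 862 without the Saline pup 2-1 and 163 without Saline litter 1, and the Poly I:C count 964 without its own litter 1 and 228 without its litter 2. In Low Protein the count of 271 came without Saline litter 2.

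Several differences that were not called changed sign. In MAM versus saline Vegfa became 0.052 and Pgk1 0.048 under the median of ratios, and 0.020 and 0.016 under the upper quartile. Array weights gave -0.025 for Ldha and 0.028 for Ankrd37 in MAM, -0.0066 for Pgk1 in Poly I:C and 0.023 for Egln3 in Low Protein. Leaving out pups or litters gave, in Low Protein, Pgk1 -0.124 to 0.025, Pdk1 -0.375 to 0.012, Ankrd37 -0.290 to 0.097, Egln3 -0.155 to 0.091, Adm -0.187 to 0.908, P4ha1 -0.168 to 0.0095 and Hif1a -0.159 to 0.180. In MAM it gave Vegfa -0.159 to 0.133, Ldha -0.073 to 0.169, Pgk1 -0.055 to 0.022, Bnip3 -0.224 to 0.027, Ankrd37 -0.324 to 0.063, Egln3 -0.064 to 0.10 and P4ha1 -0.309 to 0.132. In Poly I:C it gave Vegfa -0.337 to 0.017, Pgk1 -0.031 to 0.047, Ankrd37 -0.154 to 0.233, Egln3 -0.024 to 0.141 and P4ha1 -0.013 to 0.152.

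Pups with the same number in different groups correlated from -0.42 to 0.56 in their deviations (36 pairs, median 0.16), so the numbers were not taken to pair the pups. With them as a replicate block, 652, 794 and 596 genes were called, 2, 1 and 1 of the hypoxia-induced genes, and 2 instead of 1 in Low Protein versus MAM. The correlation within litters was 0.03 over the 5086 genes. Depth limits Adm and Ankrd37, with at most 119 and 93 reads in a pup. With 2 dams a group, the spread between dams is known only roughly. The settings for the 3 comparisons between treatments, the fit of litters and the recovered reads were chosen after seeing the data.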

Other observations

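Several genes that stand near the members in the vessel pathways were chosen after their values were seen. Ramp2, the protein that turns the calcitonin-receptor-like receptor into an adrenomedullin receptor, had 13.7 to 20.2 over the 24 pups, while Calcrl, the receptor itself, had 0.0196 to 0.0418 per genomic base. The VEGF receptor gene Kdr had 0.431 to 1.11 and Flt1 had 0.0820 to 0.173. Epo, the erythropoietin gene raised by HIF in kidney and liver, was listed at the offset in 9 of 24 pups and was at most 0.0462 in the others.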
